A study of Homo sapiens with 12 samples.

Results

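AP-1 is a family of dimeric transcription factors, built from a member of the FOS family (FOS, FOSB, FOSL1, also called FRA-1, and FOSL2, also called FRA-2) and a member of the JUN family (JUN, JUNB, JUND), or from JUN proteins alone. The subunits pair through a leucine zipper and bind short palindromic DNA elements with a basic region beside it. Mitogen-activated protein kinases raise the transcription of several subunits and phosphorylate the proteins, and in squamous epithelia AP-1 is known for its part in keratinocyte differentiation, wound response and invasion. The subunits differ in activity: FOS and FOSB carry strong transactivation domains that FOSL1 and FOSL2 lack, and JUNB and JUND are generally weaker activators than JUN. The 7 subunit genes were taken by symbol and Ensembl identifier from the 57820 gene entries listed for every library, and all 7 passed the filter on low values in both cell lines.

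Poly(A) RNA was sequenced from 12 libraries of 2 human squamous carcinoma lines with lowered or raised KLF5, a Krüppel-like zinc-finger regulator of proliferating epithelia. BICR31, from a head and neck tumour, received an siRNA against KLF5 (siKLF5, libraries A, B and C) or the control siNC (libraries A, B and C). HCC95, from a lung tumour, overexpressed KLF5 with the substitution E419Q (libraries A and B) or wild-type KLF5 (WT, libraries A and B), or carried an empty vector (Empty, libraries A and B). The labels give no siRNA sequence, vector, clone number or harvest time. Nothing in them separates independent cultures from repeat preparations of a single culture, so the tests cover only library-to-library spread, which may be technical. In bulk RNA, fewer expressing cells and less RNA per cell cannot be told apart.

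Depth in estimated counts was 2150776 to 2296188 for siKLF5 and 1922355 to 1934364 for siNC, and in HCC95 it was 3074139 to 3364760 with E419Q, 3516984 to 3992553 with WT and 3455397 to 4643792 with Empty. These are shallow libraries, which matters most for FOS and FOSB. BICR31 values are in units of the authors' normalised signal, in which 1 count was worth 7.87 to 9.12 units, and HCC95 values are CPM, counts divided by the library's total and scaled to a common total. KLF5 itself followed the labels: 958.7 ± 67.5 units with siKLF5 and 2530 ± 211 units with siNC (SD, n = 3 each), and 435 ± 10.3 CPM with E419Q, 412 ± 11.3 CPM with WT and 143 ± 9.77 CPM with Empty (SD, n = 2 each). All 7 squamous or general epithelial markers looked for (TP63, KRT5, KRT14, KRT6A, DSG3, EPCAM, CDH1) were detected in both lines. KRT14 had only 5.12 to 12.3 counts in siKLF5 libraries. The summed level of these markers was 80910 to 83645 units with siKLF5 and 102752 to 105404 units with siNC. In HCC95 it was 12676 to 13260 CPM with E419Q, 18168 to 18804 CPM with WT and 15985 to 16449 CPM with Empty.

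Compared per transcript length, JUNB held the largest share of the JUN family in BICR31 and JUND in HCC95. FOSL1 had the highest mean of all subunits in 3 of the 5 groups. In siKLF5 cells JUNB stood highest at 1834 ± 203 units per kilobase, followed by FOSL1 at 756 ± 27.1 and JUN at 494 ± 33.9 (SD, n = 3). In siNC cells FOSL1 stood first at 1775 ± 72.9 units per kilobase, followed by JUNB at 1562 ± 128 and JUN at 376 ± 20.3. The libraries of these 3 genes did not overlap within either group. With siNC, however, the lowest FOSL1 library (1691 units per kilobase) lay just above the highest JUNB library (1672). Lengths were taken from the HCC95 libraries, so the order of FOSL1 and JUNB with siNC is uncertain. FOSL2 lay next to JUN (366 ± 46.0 units per kilobase with siKLF5, 350 ± 37.8 with siNC), and in siNC cells the libraries of the pair overlapped. JUND, FOS and FOSB came last in that order in both groups.

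In HCC95, on the deposited TPM scale, which corrects for transcript length and depth, FOSL1 stood at 95.2 ± 24.7 TPM with E419Q, 49.8 ± 11.9 TPM with WT and 108 ± 3.63 TPM with Empty (SD, n = 2 each). It was first of the 7 with E419Q and with Empty. With WT it stood below JUND (82.4 ± 23.2 TPM), JUNB (64.3 ± 8.49 TPM) and FOSL2 (59.4 ± 2.13 TPM), but the libraries of neighbours among these 4 genes overlapped. JUND, which is expressed more evenly than the inducible JUN genes in many cell types, stood at 61.4 ± 1.85 TPM with E419Q and 87.8 ± 19.0 TPM with Empty, second in both, although with Empty its libraries overlapped those of FOSL2. FOS and FOSB were the lowest in each group, at most 8.09 TPM in any library. TPM depends on the length RSEM assigned in each library, which ranged from 1183 to 2158 bases for FOS, 1832 to 3658 for FOSB and 1226 to 1530 for JUND, while those of JUN and JUNB were constant.

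FOSL1 made up 61.1% to 66.0% of the summed FOS family level per length in siKLF5 libraries, against 79.0% to 83.2% in siNC libraries. The share of FOSL2 was 28.6% to 31.6% with siKLF5 and 14.8% to 18.4% with siNC, although its own level hardly moved. The summed FOS family level was 1203 ± 90.9 units per kilobase with siKLF5 and 2172 with siNC (2141 to 2199 over its libraries). In HCC95, FOSL1 held 53.7% to 63.5% of the FOS family with E419Q, 39.5% to 45.6% with WT and 57.4% to 58.4% with Empty, and with WT alone FOSL2 held the larger share, 47.7% to 55.1%. JUNB took 70.4% to 74.2% of the JUN family with siKLF5 and 71.2% to 73.4% with siNC. In HCC95 JUND took the largest share of the JUN family in all 6 libraries, in Empty A only narrowly ahead of JUNB, with 43.8% to 44.5% with E419Q, 42.9% to 48.6% with WT and 37.8% to 49.4% with Empty. These shares are a description and were not tested.

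**Figure D1:**
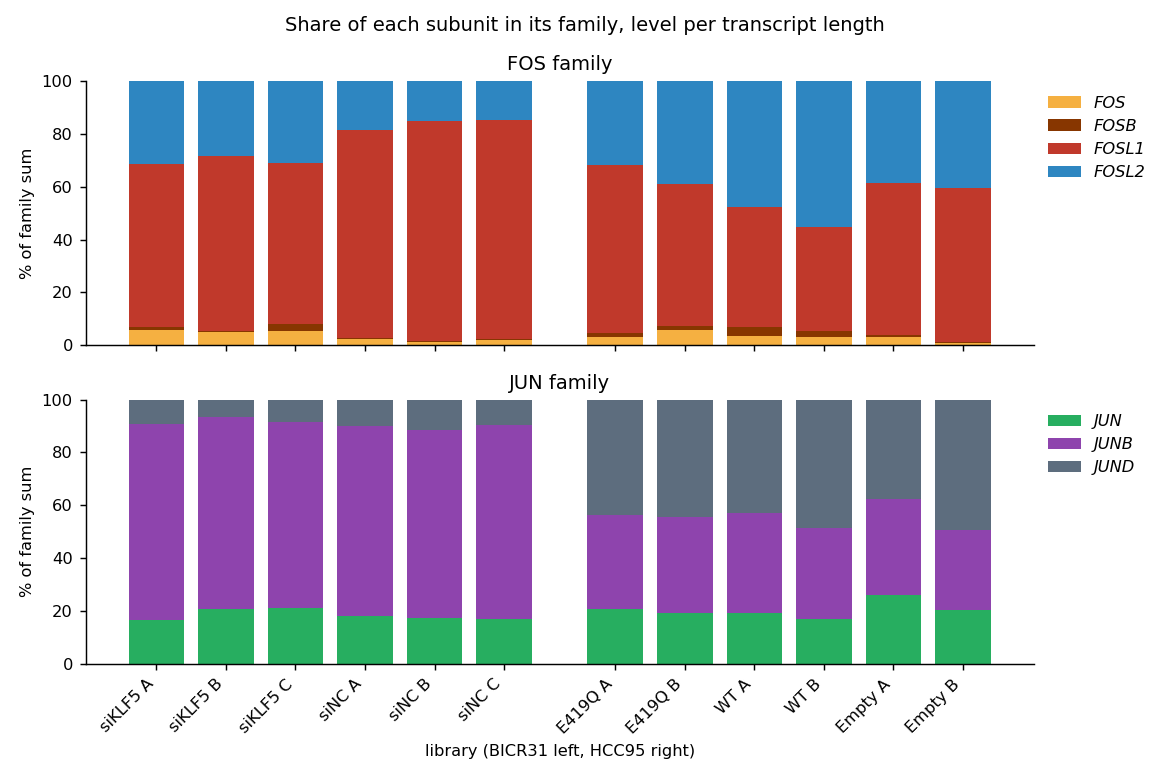
Share of each subunit in the summed level of its family, per transcript length, in each of the 12 libraries (y axis, percent; upper panel FOS family, lower panel JUN family; BICR31 on the left from signal per kilobase, HCC95 on the right from TPM). FOSL1 holds 61.1% to 66.0% of the FOS family in siKLF5 libraries and 79.0% to 83.2% in siNC libraries, and JUND is a larger part of the JUN family in HCC95 than in BICR31.

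When KLF5 was silenced in BICR31, FOSL1 fell and JUN rose, and the other 5 subunits did not pass the test. Of the 15710 genes tested in this comparison, 26.1% were called (limma, adjusted p under 0.05), so 2 of 7 called members is close to the background. Of all calls 58.7% were higher with siKLF5, and 48.5% after quantile normalisation, under which FOSL1 and JUN kept their direction and call. The level of FOSL1 (ENSG00000175592.4), the FOS family member most tied to invasive carcinoma cells, was 1233, 1150 and 1213 units in siKLF5 libraries A, B and C, against 2682, 2872 and 2891 units in siNC libraries A, B and C. Every siKLF5 library lay under every siNC library, by more than the spread within either group. FOSL1 fell by 1.23 on the log2(signal + 1) scale (SE 0.0786, limma adjusted p = 4.59e-09), a 2.35-fold lower level (95% interval 2.09 to 2.63), and leaving out any 1 library gave log2 fold changes from -1.27 to -1.20.

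FOSL2 (ENSG00000075426.7), a close relative of FOSL1, was at 1956, 1542 and 1906 units with siKLF5 and 1936, 1632 and 1599 units with siNC. The groups overlapped, and its log2 fold change of 0.06 had a 95% interval of -0.16 to 0.28 (limma adjusted p = 0.714). FOS (ENSG00000170345.5), the founding member and a classic immediate early gene, was at 123, 91.7 and 118 units with siKLF5 and 90.9, 45.6 and 81.3 units with siNC. That is 15, 11 and 15 estimated counts with siKLF5 and 10, 5 and 9 with siNC. The siKLF5 libraries all lay above the siNC libraries, but the log2 fold change of 0.65 (SE 0.378) did not pass (limma adjusted p = 0.230). FOSB (ENSG00000125740.9) had 4, 2 and 10 counts with siKLF5 and 1, 2 and 1 with siNC, which leaves its log2 fold change of 1.54 (95% interval -0.26 to 3.34, limma adjusted p = 0.208) undetermined at this depth.

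JUN (ENSG00000177606.5), the main partner of the FOS proteins, was at 1545, 1608 and 1764 units with siKLF5, against 1173, 1295 and 1283 units with siNC. All siKLF5 libraries lay above all siNC libraries. JUN rose 1.31-fold, or 0.39 on the log2 scale (SE 0.0907; limma, adjusted p = 0.00385), and stayed called without any 1 library. JUNB (ENSG00000171223.4) was at 3747, 3050 and 3189 units with siKLF5 and 2582, 2891 and 3035 units with siNC. These groups did not overlap either, although the nearest libraries lay close together, and the log2 fold change of 0.23 (SE 0.0834) lay just outside the threshold (limma adjusted p = 0.0537). JUNB passed it with a pseudocount of 10 (limma adjusted p = 0.0387) and with genes under a mean of 100 units removed (limma adjusted p = 0.0284). It also passed in edgeR on estimated counts (adjusted p = 0.0458), without siKLF5 B (limma adjusted p = 0.0356) and without siNC C (limma adjusted p = 0.0490). It failed with a pseudocount of 0.1, no filter, quantile normalisation or a replicate block (limma adjusted p = 0.0697, 0.0982, 0.200 and 0.0583). Without siKLF5 A, siKLF5 C, siNC A or siNC B it failed as well (limma adjusted p = 0.273, 0.0924, 0.214 and 0.0922). Quantile normalisation lowered the log2 fold change of JUNB to 0.15. JUND (ENSG00000130522.4) was at 353, 217 and 291 units with siKLF5 and 273, 356 and 307 units with siNC, and its groups overlapped (log2 fold change -0.14, 95% interval -0.58 to 0.31, limma adjusted p = 0.683). In 4 of the 7 genes (FOS, FOSL1, JUN, JUNB) the libraries of the 2 groups did not overlap, which held for 40.0% of all genes tested.

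JUNB shares exonic sequence with HOOK2, a gene of microtubule transport on the opposite strand (GENCODE 29). The sources do not state whether counting used strand, so reads from the shared stretch may not be assigned to the right gene. HOOK2 was not called in any of the comparisons, though a change is not excluded. Its log2 fold changes were 0.29 for siKLF5 (95% interval 0.04 to 0.54) and 0.34 for WT (95% interval 0.04 to 0.65). They were 0.24 for E419Q against Empty (95% interval -0.08 to 0.56) and -0.11 for E419Q against WT (95% interval -0.42 to 0.20). Markers of other cell types moved with siKLF5 in BICR31. Of 6 fibroblast markers 3 were tested, and COL1A1 and COL1A2 rose. The summed list level was 1898 to 2208 units with siKLF5 and 864 to 948 units with siNC, while DCN and LUM had 0 counts in siKLF5 libraries. Of 6 immune markers 3 were tested, and CD68 and ITGAM rose. Their list summed to 876 to 999 units with siKLF5 and 462 to 579 units with siNC, while CD3E had 0 counts in both groups. Of 4 endothelial markers 3 were tested and VWF rose, and the sums were 268 to 427 units with siKLF5 and 164 to 246 units with siNC. The part of these genes in the changes of FOSL1 and JUN was not tested.

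**Figure D2:**
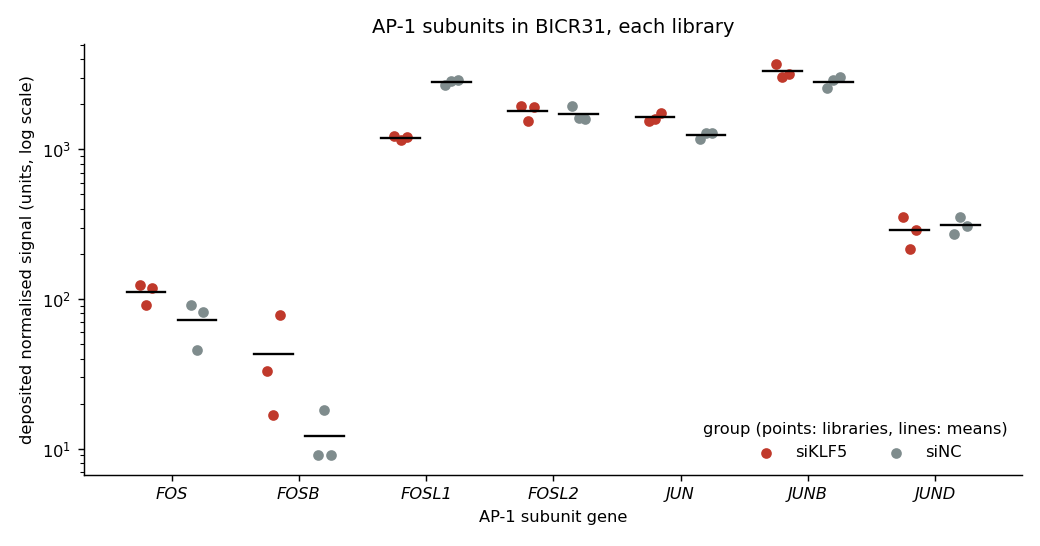
Normalised signal of the 7 AP-1 subunits in the BICR31 libraries (y axis, units of the deposited signal, log scale; points are single libraries, black lines group means; siKLF5 left of siNC). The FOSL1 libraries of siKLF5 lie between 1150 and 1233 units and those of siNC between 2682 and 2891 units, while JUN lies higher with siKLF5 and FOSL2 and JUND overlap.

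When wild-type KLF5 was overexpressed in HCC95, FOSL1, FOSL2 and JUN fell and the other 4 subunits did not pass the test, against a background of 22.9% of 12933 genes called in either direction and 12.1% called lower. FOSL1 was at 56.6 and 40.6 CPM in WT libraries A and B, against 102 and 107 CPM in Empty libraries A and B. Both WT libraries lay far under both Empty libraries. FOSL1 fell by 1.13 on the log2 scale (SE 0.139, edgeR adjusted p = 3.00e-06), a 2.19-fold lower level (95% interval 1.80 to 2.68).

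FOSL2 was at 188 and 181 CPM with WT, against 238 and 251 CPM with Empty, and fell by 0.42 on the log2 scale (SE 0.0700, edgeR adjusted p = 1.29e-04). JUN was at 65.4 and 75.6 CPM with WT, against 111 and 90.4 CPM with Empty, and fell by 0.51 on the log2 scale (SE 0.107, edgeR adjusted p = 0.00139). For FOSL1, FOSL2 and JUN the groups did not overlap, and all 3 stayed called with DESeq2 and without any 1 library. JUNB was at 67.4 and 80.7 CPM with WT and 81.0 and 69.1 CPM with Empty (log2 fold change -0.02, 95% interval -0.24 to 0.20), and JUND at 59.4 and 72.4 CPM with WT and 69.5 and 77.7 CPM with Empty (log2 fold change -0.17, 95% interval -0.39 to 0.05). Both genes overlapped between the groups and neither was called.

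FOS had 23 and 19 counts with WT and 14 and 9 with Empty, that is 6.54 and 4.76 CPM with WT and 4.05 and 1.94 CPM with Empty. Both WT libraries lay above both Empty libraries, with a log2 fold change of 0.95 (SE 0.408, edgeR adjusted p = 0.0991), and FOS passed only without Empty A (edgeR adjusted p = 0.0465). FOSB had 26 and 12 counts with WT and 12 and 8 with Empty, with a log2 fold change of 1.01 (SE 0.475, edgeR adjusted p = 0.133), and passed only without WT B (edgeR adjusted p = 0.0496). No subunit was called higher in WT by edgeR or by DESeq2, and 2 had an unadjusted edgeR p under 0.05 (FOS and FOSB). In CPM, the WT and Empty libraries did not overlap in 4 of the 7 genes (FOS, FOSL1, FOSL2, JUN), against 61.0% of all genes tested. On the TPM scale those of FOS overlapped and those of FOSB did not. Of the markers of other cell types, CD68 fell with WT, the only 1 of the 6 immune genes that was tested. PTPRC and CD3E had 0 counts in WT and Empty libraries.

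**Figure D3:**
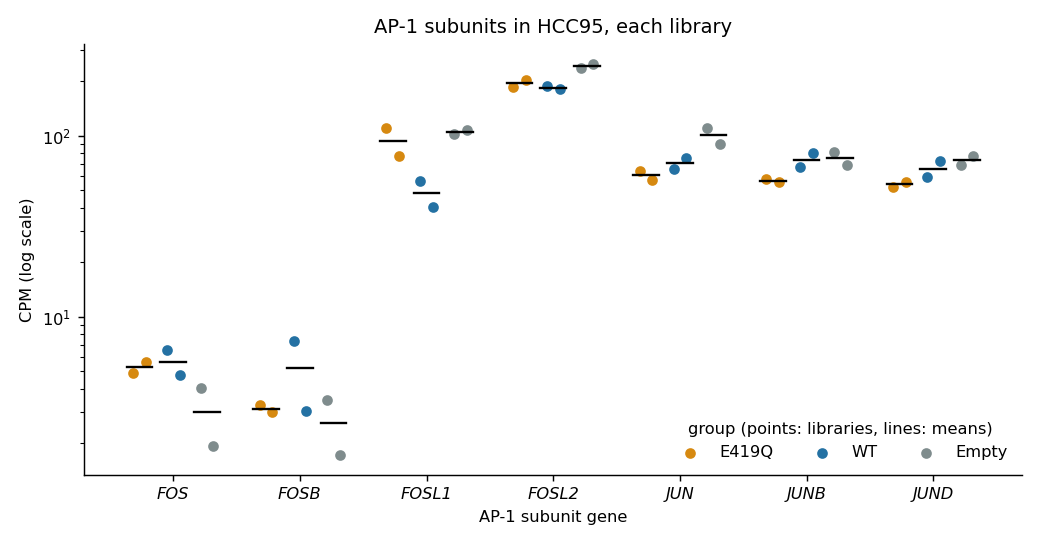
Levels of the 7 AP-1 subunits in the HCC95 libraries (y axis, CPM, log scale; points are single libraries, black lines group means; E419Q, WT and Empty from left to right). FOSL1 lies at 109.9 and 77.9 CPM with E419Q, 56.6 and 40.6 CPM with WT and 102 and 107 CPM with Empty, while FOSL2 and JUN are lower with E419Q and with WT than with Empty.

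With E419Q against Empty, FOSL2 and all 3 JUN family genes fell, and FOSL1 did not pass the test, against 21.2% of 12933 genes called, 10.4% higher and 10.8% lower. This comparison shares its Empty libraries with that of WT. JUN was at 64.4 and 57.1 CPM with E419Q, against 111 and 90.4 CPM with Empty, and fell by 0.75 on the log2 scale (SE 0.114, edgeR adjusted p = 3.97e-05). FOSL2 was at 186 and 205 CPM with E419Q, against 238 and 251 CPM with Empty, and fell by 0.36 on the log2 scale (SE 0.0708, edgeR adjusted p = 7.94e-04). Neither gene overlapped between the groups, and both stayed called with DESeq2 and without any 1 library.

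JUNB was at 57.6 and 55.9 CPM with E419Q, against 81.0 and 69.1 CPM with Empty, and fell by 0.42 on the log2 scale (SE 0.114, edgeR adjusted p = 0.00967). Its call was lost with DESeq2 (adjusted p = 0.180) and, in edgeR, without E419Q A (adjusted p = 0.0560), E419Q B (adjusted p = 0.0977) or Empty A (adjusted p = 0.0902). JUND was at 52.4 and 55.6 CPM with E419Q, against 69.5 and 77.7 CPM with Empty, and fell by 0.48 on the log2 scale (SE 0.113, edgeR adjusted p = 0.00340). Its call was lost with DESeq2 (adjusted p = 0.119) and, in edgeR, without E419Q A (adjusted p = 0.0520) or Empty B (adjusted p = 0.0515). Both genes were nevertheless lower in each E419Q library than in each Empty library.

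FOSL1 was at 109.9 and 77.9 CPM with E419Q and 102 and 107 CPM with Empty. Library A of E419Q lay above both Empty libraries and library B under both, and the log2 fold change of -0.20 had a 95% interval of -0.46 to 0.07 (edgeR adjusted p = 0.302). Without E419Q A it was -0.46 and called (edgeR adjusted p = 0.0410), and without E419Q B it was 0.04 (edgeR adjusted p = 0.907), so the E419Q level of FOSL1 relative to Empty rests on which library is used. FOS had 15 and 19 counts with E419Q and 14 and 9 with Empty (log2 fold change 0.84, edgeR adjusted p = 0.171), and FOSB 10 and 10 with E419Q and 12 and 8 with Empty (log2 fold change 0.29, edgeR adjusted p = 0.767). No subunit was called higher in E419Q by edgeR or DESeq2, and 0 had an unadjusted edgeR p under 0.05 in that direction. In CPM, the E419Q and Empty libraries did not overlap in 5 of the 7 genes (FOS, FOSL2, JUN, JUNB, JUND), against 58.8% of all genes tested. On the TPM scale those of FOS overlapped and those of FOSB did not. Of the markers of other cell types, VWF rose and CD68 fell with E419Q, and KDR and CD3E had 0 counts in E419Q and Empty libraries.

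Set directly against WT, E419Q cells held more FOSL1 and less JUNB, in a comparison in which 8.0% of 12933 genes were called, 4.41% higher and 3.59% lower. FOSL1 was at 109.9 and 77.9 CPM with E419Q, against 56.6 and 40.6 CPM with WT. Both E419Q libraries lay above both WT libraries, and FOSL1 rose by 0.94 on the log2 scale (SE 0.146, edgeR adjusted p = 1.18e-04), a 1.91-fold higher level (95% interval 1.55 to 2.36). It stayed called with DESeq2 and without any 1 library. The KLF5 transcript itself differed between these groups by a fold of 1.04 (95% interval 0.954 to 1.14, edgeR adjusted p = 0.683). Its libraries did not overlap, at 427 and 442 CPM with E419Q and 420 and 404 CPM with WT. These data hold no level of KLF5 protein.

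JUNB was at 57.6 and 55.9 CPM with E419Q, against 67.4 and 80.7 CPM with WT, and fell by 0.41 on the log2 scale (SE 0.115, edgeR adjusted p = 0.0289). This call was lost with DESeq2 (adjusted p = 0.512) and, in edgeR, without E419Q A (adjusted p = 0.140), E419Q B (adjusted p = 0.205) or WT B (adjusted p = 0.380). JUND and JUN were lower in both E419Q libraries than in both WT libraries as well, but did not pass, with log2 fold changes of -0.31 (edgeR adjusted p = 0.122) and -0.24 (edgeR adjusted p = 0.290). FOSL2, with a log2 fold change of 0.06 (95% interval -0.09 to 0.22), and FOS, with -0.11 (95% interval -0.89 to 0.68), overlapped between the groups, as did FOSB with -0.73 (95% interval -1.72 to 0.26). In CPM, the E419Q and WT libraries did not overlap in 4 of the 7 genes (FOSL1, JUN, JUNB, JUND), against 49.0% of all genes tested. On the TPM scale those of JUN overlapped and those of FOS and FOSL2 did not. Markers of other cell types also differed, since COL1A1 and VWF rose with E419Q against WT, to summed fibroblast levels of 14.3 to 17.5 CPM with E419Q and 8.01 to 8.81 CPM with WT and summed endothelial levels of 26.3 to 28.5 CPM with E419Q and 12.3 to 16.5 CPM with WT. LUM, DCN and KDR had 0 counts in all of these libraries, and the part of the other markers in the difference of FOSL1 was not tested.

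**Figure D4:**
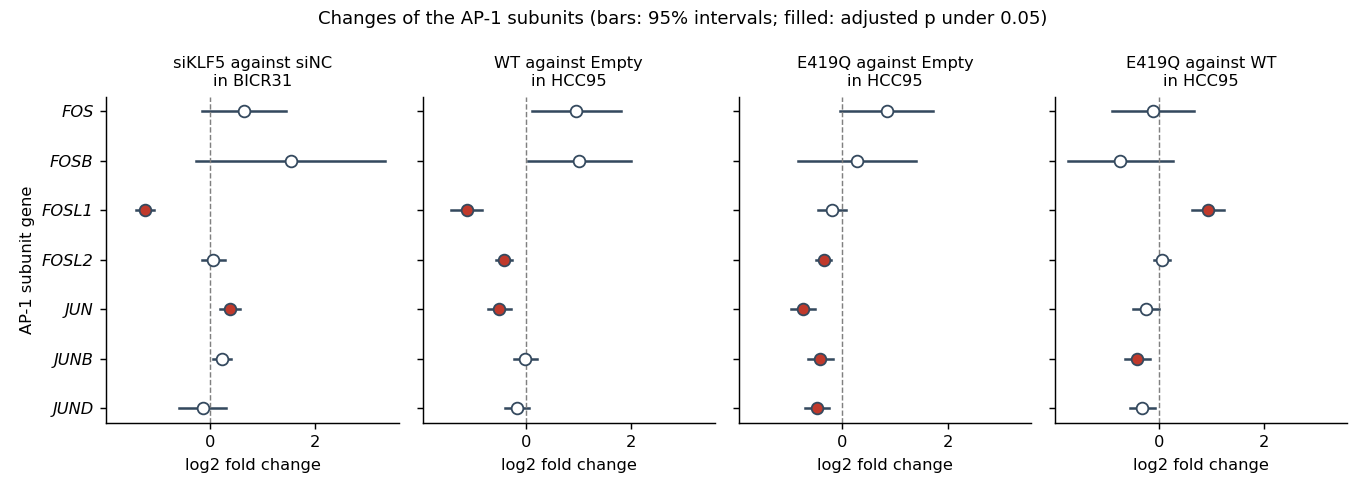
Log2 fold change of each AP-1 subunit in the 4 comparisons (x axis; circles are estimates, bars 95% intervals, filled circles an adjusted p under 0.05; limma for BICR31, edgeR for HCC95). FOSL1 lies at -1.23 with siKLF5 in BICR31, -1.13 with WT and -0.20 with E419Q against Empty, and 0.94 with E419Q against WT, while the intervals of FOS and FOSB are wide.

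The comparisons of the 2 lines share no libraries, and KLF5 was moved in opposite directions in them. FOSL1 was lower in both, by a log2 fold change of -1.23 with siKLF5 in BICR31 and -1.13 with WT in HCC95, although KLF5 was lowered in one and raised in the other. Of 12432 genes tested in both lines, 329 (2.65%) fell in both of these comparisons. JUN had opposite signs, 0.39 with siKLF5 and -0.51 with WT, a pattern shared by 388 genes (3.12%). FOSL2 was called with WT (-0.42) and not with siKLF5 (0.06), and JUNB and JUND were called in neither of these comparisons. The lines were not put into a single fit, because their values come in different units.

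The promoters of the subunits and of their known targets were read for the DNA elements that AP-1 and KLF factors are known to bind, because AP-1 genes are in part regulated by their own products. Promoter sequences come from RefSeq on GRCh38.p14, and the 250 bases before the start were searched on both strands. The AP-1 element TGANTCA was present in 6.57% of 35116 promoters, the related palindrome TGACGTCA in 1.65%, and its variant TGACATCA, added after the JUN sequence had been read, in 2.37%. The GC box GGGCGG, bound by SP and KLF factors, was present in 42.6%, and the CACCC element CCACACCC in 2.97%. FOSL1 had no promoter sequence among these, so its promoter was not searched. Of the 6 subunits in the table (FOS, FOSB, FOSL2, JUN, JUNB, JUND), 5 held GGGCGG, JUND held TGACGTCA, JUN held TGACATCA, and none of the 6 held TGANTCA or CCACACCC. TGACATCA lies in JUN where the known autoregulatory AP-1 element of this gene has been described. The windows of JUN and JUND follow, with TGACATCA and GGGCGG on either strand in capitals in JUN, and TGACGTCA alone in capitals in JUND, where a GGGCGG match on the opposite strand stays in lower case.
JUN, chr1:58784082-58784191, minus strand: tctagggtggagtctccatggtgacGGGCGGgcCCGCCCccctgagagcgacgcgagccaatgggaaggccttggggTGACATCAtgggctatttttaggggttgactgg
JUND, chr19:18281790-18281847, minus strand: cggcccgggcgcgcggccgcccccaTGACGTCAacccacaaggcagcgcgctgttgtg

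Of 24 genes known as AP-1 targets in epithelia, proteases, cytokines, cornified envelope genes and adhesion genes, 15 were in the promoter table, and 7 of these held TGANTCA. Windows of 4 of these 7 genes, chosen after their values were seen, are shown as examples, with TGANTCA matches in capitals.
MMP10, chr11:102780664-102780720, minus strand: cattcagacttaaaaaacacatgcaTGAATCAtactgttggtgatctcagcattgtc
IL8 (CXCL8), chr4:73740407-73740463, plus strand: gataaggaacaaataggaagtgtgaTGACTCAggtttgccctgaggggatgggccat
PLAUR, chr19:43670324-43670380, minus strand: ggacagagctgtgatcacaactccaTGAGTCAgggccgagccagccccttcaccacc
SPRR1B, chr1:153031037-153031123, plus strand: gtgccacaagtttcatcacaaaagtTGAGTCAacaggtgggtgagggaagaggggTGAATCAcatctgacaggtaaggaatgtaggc

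Most called AP-1 targets were higher with siKLF5 in BICR31 and lower with WT or E419Q than with Empty in HCC95. With siKLF5 in BICR31, 13 of 23 tested rose and 3 fell, with a median log2 fold change of 0.54, against 0.04 over all genes tested and 26.1% of genes called. PLAU, the urokinase protease, rose by a log2 fold change of 1.36 (27235 ± 507 units with siKLF5, 10617 ± 207 with siNC, SD, n = 3 each, limma adjusted p = 5.46e-13), and PLAUR, its receptor, by 1.35. IL8, a neutrophil chemokine, rose by 2.37 on the log2 scale (2540 ± 79.1 units with siKLF5, 505 ± 148 with siNC, limma adjusted p = 1.08e-08). MMP10, shown above, had 56 estimated counts with siKLF5 and 4 with siNC. CCND1, which encodes cyclin D1, fell by 0.43 on the log2 scale.

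With WT against Empty in HCC95, 3 of 20 tested targets rose and 12 fell, with a median log2 fold change of -0.53, against 0.00 over all genes tested. Of all genes tested there, 22.9% were called and 12.1% were called lower. PLAU fell by 0.67 on the log2 scale (219 and 263 CPM in the WT libraries, 374 and 384 CPM in the Empty libraries, edgeR adjusted p = 6.37e-07), and F3, tissue factor, by 0.82. MMP9, a gelatinase, had 1 count with WT and 98 with Empty, a ratio of 90.9-fold lower with a 95% counting interval of 15.9 to 3625. DESeq2 called 7 targets (2 higher, 5 lower), and without WT B edgeR called 8 (2 higher, 6 lower). With E419Q against Empty, 11 of 20 targets fell and edgeR and DESeq2 called 0 higher (1 at an unadjusted edgeR p under 0.05), with a median log2 fold change of -0.34. Over all genes tested in that comparison, 21.2% were called and 10.8% were called lower. F3 fell by 1.12 on the log2 scale and MMP9 by 2.94. SPRR1A, a cornified envelope gene, had 0 counts with E419Q and 32 with Empty, at least 8.48-fold lower against a floor of 3 counts over the E419Q group.

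Between E419Q and WT, 4 of 20 targets rose and 5 fell, with a median log2 fold change of -0.15. Over all genes tested, 8.0% were called, 4.41% higher and 3.59% lower. PLAU rose by 0.65 on the log2 scale (382 ± 13.8 CPM with E419Q, 241 ± 31.6 with WT, SD, n = 2 each, edgeR adjusted p = 2.14e-06), while MMP10 fell by 2.96 and VEGFA, the vascular growth factor, by 0.67. DESeq2 called 5 targets (2 higher, 3 lower), and so did edgeR without E419Q B. With SPRR1A set to its bound the medians of both E419Q comparisons stayed at -0.34 and -0.15, which a change in 1 low value could hardly alter.

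**Figure D5:**
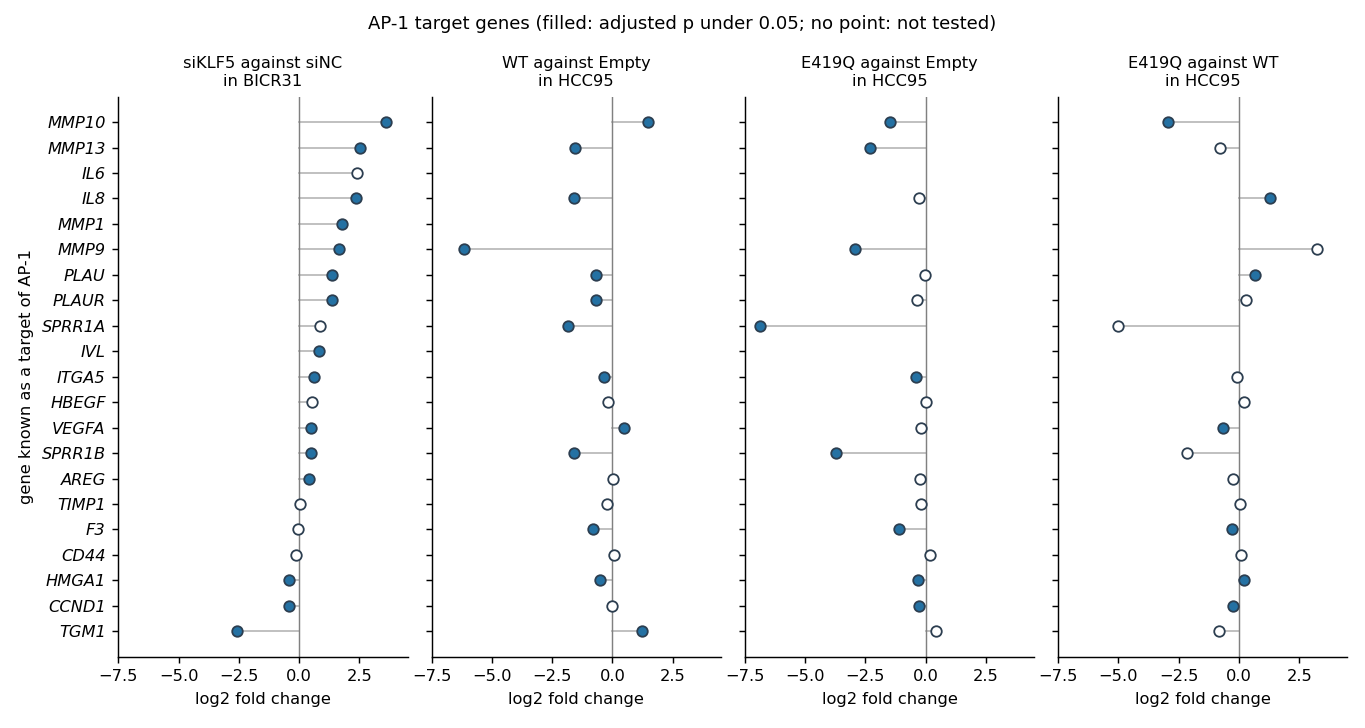
Log2 fold changes of known AP-1 target genes in the 4 comparisons (x axis; circles are estimates, filled where the adjusted p was under 0.05, limma for BICR31 and edgeR for HCC95; genes ordered by their change in BICR31). Not every gene of the list is drawn. Over the whole list, 13 rise and 3 fall with siKLF5 in BICR31, against 26.1% of all genes called. With WT against Empty in HCC95, 3 rise and 12 fall, against 22.9% of all genes called. The values of MMP9 with WT (1 count) and SPRR1A with E419Q (0 counts) depend on the prior count of the fit.

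The counts in the lists that follow stand beside 26.1% of all genes called with siKLF5, 22.9% with WT, 21.2% with E419Q against Empty and 8.0% between E419Q and WT, and no list was tested against other genes. Among 12 basic leucine zipper partners that can pair with or compete with FOS and JUN proteins, 10 were tested in BICR31, where 4 rose and 1 fell (median log2 fold change 0.41). MAF rose by 2.61 on the log2 scale (50 counts with siKLF5, 7 with siNC), the small MAF genes MAFK by 0.48 and MAFG by 0.35, and JDP2, a dimer partner that represses AP-1 sites, fell by 1.11. In HCC95 9 were tested: 2 rose and 1 fell with WT (median -0.11), 1 rose and 2 fell with E419Q against Empty (median -0.01), and 2 fell with E419Q against WT (median -0.00, with 0 called higher by edgeR and DESeq2 and 2 at an unadjusted edgeR p under 0.05). ATF3, a stress-induced partner of JUN, was at 9.01 ± 0.136 CPM with E419Q, 24.7 ± 1.93 CPM with WT and 16.1 ± 1.41 CPM with Empty (SD, n = 2 each). It rose by 0.62 with WT against Empty (edgeR adjusted p = 0.00998), fell by 0.85 with E419Q against Empty (edgeR adjusted p = 0.00593) and fell by 1.47 with E419Q against WT (edgeR adjusted p = 2.13e-05). MAFK fell by 0.60 with both forms against Empty. The count in BICR31 was 3 without siKLF5 A, siKLF5 C or siNC B. With E419Q against Empty, 1 was called without E419Q B and 0 with DESeq2.

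Of 16 upstream kinases, 2 rose and 3 fell with siKLF5 (median log2 fold change 0.07), a share near the 26.1% of all genes. MAP2K4, an activator of the JUN kinases, rose by 1.24 and MAPK11 by 0.87, while RPS6KA1 fell by 0.48 and MAP2K3 by 0.28; 3 were called without siKLF5 C, siNC B or siNC C. In HCC95 RPS6KA5 was the only kinase called with WT, with a rise of 0.64, and 2 were called with E419Q against Empty, RPS6KA5 higher by 0.68 and MAP2K1 lower by 0.38, shares below the 22.9% and 21.2% of all genes. The WT count was 0 without WT B or with DESeq2 and 2 without Empty A, and that of E419Q was 0 without E419Q A or with DESeq2 and 1 without E419Q B or Empty A. Without Empty B no kinase was called higher, and 1 was called lower with WT and 2 with E419Q. Between E419Q and WT edgeR and DESeq2 called 0 kinases, and 0 had an unadjusted edgeR p under 0.05. The medians in the 3 HCC95 comparisons were 0.06 for WT, -0.00 for E419Q and -0.01 between them.

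The MAPK phosphatases are induced by the pathway and switch it off. With siKLF5, 5 of 11 rose and 1 fell (median log2 fold change 0.42, against 26.1% of all genes called), among them DUSP16 by 1.56, DUSP10 by 1.34, DUSP8 by 1.33 and DUSP5 by 0.83. With WT, 2 rose and 3 fell (median -0.06). DUSP6, an ERK phosphatase, rose by 0.88, and DUSP4 fell by 0.96, DUSP14 by 0.57 and DUSP7 by 0.50. With E419Q against Empty, 1 rose and 5 fell (median -0.30), with DUSP6 higher by 0.96 and DUSP8 lower by 1.36, DUSP4 by 0.83 and DUSP14 by 0.51. Between E419Q and WT DUSP16 fell by 0.76 and the median was -0.28. DESeq2 called 2, 1 and 0 phosphatases in these 3 comparisons. Without E419Q B edgeR called 2 with E419Q against Empty and 2 between E419Q and WT, and between E419Q and WT it called 0 without E419Q A or WT B.

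Of 17 other immediate early genes, which share their serum and kinase response with FOS and JUNB, 6 rose and 2 fell with siKLF5 (median log2 fold change 0.27, against 26.1% of all genes called). KLF6 rose by 0.90, ZFP36, an mRNA decay factor, by 0.91 and IER3 by 0.80, and MYC fell by 0.49; without siKLF5 A, 5 were called. Of 15 tested in HCC95, 3 rose and 4 fell with WT (median -0.03), with CYR61, a matricellular protein, lower by 1.90, IER2 lower by 0.28, BTG2 higher by 1.05 and NR4A1 higher by 0.73. With E419Q against Empty, 1 rose and 6 fell (median -0.37), with CYR61 lower by 1.52, KLF6 by 0.89, IER2 by 0.38 and MYC by 0.37. Between E419Q and WT, 5 fell (median -0.15), among them ATF3, KLF6 by 1.11, BTG2 by 0.56 and MYC by 0.32, and edgeR and DESeq2 called 0 higher, with 2 at an unadjusted edgeR p under 0.05. DESeq2 called 2, 3 and 2 of these genes, and edgeR called 4 with WT without WT B, 4 with E419Q against Empty without E419Q B and 3 between E419Q and WT without WT A.

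The serum response factor and its partners, which drive FOS transcription, are too few to set apart from the share of all genes called. That share was 26.1% with siKLF5 and 8.0% to 22.9% in the HCC95 comparisons. Of 6, ELK3 rose by 0.52 with siKLF5 (median log2 fold change 0.02). In HCC95 edgeR and DESeq2 called 0 in each comparison, with 3, 2 and 2 at an unadjusted edgeR p under 0.05 for WT, E419Q and E419Q against WT, and medians of -0.19, -0.16 and 0.04. Without Empty A, edgeR called 1 lower with WT and 1 lower with E419Q against Empty, and with WT it called 1 lower with RLE scaling and 1 higher with upper-quartile scaling. With siKLF5, quantile normalisation and edgeR on estimated counts each called 1 higher and 1 lower. A list of 8 genes was taken around the turnover of JUN and FOS proteins. Not all of them need act on these proteins, whose turnover was not measured. TRIB2, an adaptor of the COP1 ligase, rose 3.99-fold with siKLF5 (1156 ± 84.5 units with siKLF5, 290.5 ± 44.4 with siNC, limma adjusted p = 1.99e-08). ITCH fell by 0.36 with siKLF5 (median of the list 0.04). TRIB1, a relative of TRIB2, fell by 0.82 with WT (median of the list 0.03) and by 0.50 with E419Q against Empty (median -0.01). TRIB2 rose by 0.96 with E419Q against Empty and by 0.87 with E419Q against WT (median -0.03). DESeq2 called 0 of these genes in HCC95. With E419Q against Empty 1 was called without E419Q A, E419Q B or Empty A, and between E419Q and WT 0 without E419Q B or WT A.

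Genes whose levels followed each subunit most closely over the 12 libraries were ranked by Pearson's r of log2 values centred on the mean of each line, over 12431 genes. These correlations are a description, because libraries of a group share their treatment and depth. For FOSL1 the closest were EHD2 (r = 0.97), AXL, a receptor tyrosine kinase (r = 0.969), and ZBTB2 (r = 0.952). Their likeness to FOSL1 follows from how they were picked. FOSL1 had log2 fold changes of -1.23 with siKLF5, -1.13 with WT, -0.20 with E419Q against Empty and 0.94 with E419Q against WT. In the same order AXL had -1.38, -0.82, 0.01 and 0.83, EHD2 -0.62, -0.42, -0.12 and 0.30, and ZBTB2 -0.59, -0.46, -0.11 and 0.35. For JUN the closest genes were RHOV (r = 0.947), VEZT (r = 0.946) and MARS (r = 0.941). For JUNB they were UBTD2 (r = 0.937), TNFAIP1 (r = 0.892) and EPB41L4A (r = 0.879), and for JUND NDUFAF1 (r = 0.886), MIPEP (r = 0.871) and RAC3 (r = 0.852). For FOSL2 they were SURF4 (r = 0.94), MMP7 (r = 0.91) and TRIB3 (r = 0.876). For FOS (RFX5, r = 0.938, KIAA1211L, r = 0.923, TRIM5, r = 0.912) and FOSB (CDH8, r = 0.909, TMSB10, r = 0.909, RDH11, r = 0.897) the ranking rests on few counts.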

How the data were processed

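The submitters' processing notes name STAR, RSEM and the build hg19 without versions, and edgeR and limma for HCC95. The HCC95 files hold RSEM expected counts and TPM that the authors deposited per gene, per the file headers. The BICR31 files hold a normalised signal that the authors deposited; its scaling is not stated in the labels or headers. Its steps give the estimated counts quoted (81.7% to 82.6% of values whole within 0.02), and the first line of each BICR31 file, which names no gene, was dropped.

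BICR31 was tested with limma 3.58.1 on log2(signal + 1) with genes under a mean of 10 units removed. HCC95 was tested with edgeR 4.0.16 (quasi-likelihood, TMM, filterByExpr, 6 libraries) on expected counts rounded to whole numbers. P-values were two-sided and adjusted by Benjamini and Hochberg's method over all genes tested, with a threshold of 0.05; all p-values called adjusted come from these fits or from DESeq2 1.42.0. Per-length levels are TPM in HCC95. In BICR31 they are signal per kilobase of the mean RSEM gene length of the 6 HCC95 libraries, since the BICR31 data hold no lengths. Counting intervals and the floor of 3 counts (23.6 to 27.4 units, 0.646 to 0.976 CPM per library) cover counting error only. Chi-square over degrees of freedom was 1.22 to 1.88 for pairs of libraries of a group, above counting noise, so none was treated as the same library deposited again; this does not tell separate cultures from repeat preparations.

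The members, the 7 lists around AP-1 and the marker lists were chosen with earlier results of these data known. Genes named are the members, KLF5, up to 4 called genes per list and comparison by smallest adjusted p, and the 3 genes most like each member; HOOK2, SPRR1A, and MMP10 in BICR31 were named after their values were seen. Some genes of these lists are counted but not reported here by name. Gene overlaps come from GENCODE 29. Tests were also run on simulated data with fewer changed genes than were called here and a fixed spread, which does not measure their error in these data. Alternatives covered pseudocounts, filters, scalings, DESeq2, single libraries left out and a replicate block. R 4.3.3 and Python 3.11.15 were used.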

Additional observations from a re-analysis of the deposited data

How the results depend on the processing

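Under every alternative run, including edgeR on estimated BICR31 counts, which was chosen after seeing the data, FOSL1 with siKLF5, WT and E419Q against WT, JUN with siKLF5, WT and E419Q, and FOSL2 with WT and E419Q kept their direction and call. DESeq2 moved the number of genes called to 951 for WT, 963 for E419Q and 382 for E419Q against WT, and the subunits called to 2 for E419Q and 1 for E419Q against WT; the cause was not tested. Leaving out single libraries gave 3194 to 3608 genes called with siKLF5, 1719 to 2422 with WT, 1626 to 2298 with E419Q and 597 to 634 between E419Q and WT, and 2 to 3, 3 to 4, 3 to 3 and 1 to 2 subunits. Some uncalled log2 fold changes reversed. In BICR31 FOSL2 was at -0.0072 with quantile normalisation, and leaving out single libraries gave -0.0018 to 0.17 for FOSL2 and -0.302 to 0.0495 for JUND. With WT, JUNB was at 0.022 with upper-quartile scaling and at -0.155 to 0.0984 without single libraries. Likewise, with E419Q FOSL1 was at -0.463 to 0.0378 and FOSB at -0.192 to 0.806, and between E419Q and WT FOSL2 was at -0.0080 to 0.127, FOS at -0.330 to 0.130 and FOSB at -1.264 to 0.0303. Library letters did not pair the libraries (correlation of same-letter deviations -0.0761 to 0.0723), and with the letter as a replicate block 4076 genes were called with siKLF5, 2900 with WT, 2686 with E419Q and 987 between E419Q and WT, with no subunit's call changed. Depth limits FOS and FOSB, at 1 to 26 counts per library.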
